A study of Mus musculus with 6 samples.

Results

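Neutrophil granule protein genes were followed in bone marrow-derived macrophages, which are macrophages grown in culture from marrow progenitors. The 8 genes are Ngp, Ltf, Lcn2, Camp, Wfdc21, Mpo, Prtn3 and Mmp8. They were taken by symbol from the table of raw read counts per gene that the authors deposited, and all 8 were found among its 10551 genes. They were chosen by their granule function together with their measured levels in knockout and control libraries, which were already known. Their differences between the groups are therefore given as a description, without a test of their own. Of the 6 libraries, 3 came from C57BL/6J macrophages labelled as a macrophage specific knockout of Dhps (Dhps_delta_Myel) and 3 from C57BL/6J macrophages labelled as control. Dhps encodes deoxyhypusine synthase, the enzyme that begins the formation of hypusine on eIF5A, a factor of protein synthesis. The Cre driver, the culture conditions, any stimulus, the age of the mice and the source of each library in an animal or a culture are not stated in the labels, so the spread between libraries may be technical.

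Granule proteins are the preformed antimicrobial and digestive cargo of neutrophils. They are made while the cell matures in the marrow, and the class of a granule follows the stage at which its proteins are made: primary (azurophil) granules in promyelocytes, secondary (specific) granules in myelocytes, and tertiary (gelatinase) granules in later stages. Transcripts of one class fade as the next is made, and a mature neutrophil holds much granule protein but little of its early transcript. Lysozyme and several granule membrane proteins are shared with macrophages, and activated macrophages can make some of the others too, Lcn2 among them.

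The classes were assigned from textbook knowledge. Mpo and Prtn3 were taken as primary, and Ngp, Ltf, Lcn2 and Camp as secondary. Mmp8, a collagenase stored in secondary and also reported in tertiary granules, was kept apart, and Wfdc21 was given no class. The upstream stretches of 4 genes are shown: the 3 secondary granule genes that passed the test over all genes, and Mmp8, whose groups overlapped. Each line holds the 250 bases before the RefSeq start in GRCm38.p6, the assembly also called mm10, read 5′ to 3′ on the strand of the gene. Capitals mark every match to the C/EBP-type motif TTNNGNAA on either strand, where N is any base. C/EBP factors, C/EBP-epsilon among them, are known regulators of granule genes.
Ngp (chr9:110419558-110419807, plus strand): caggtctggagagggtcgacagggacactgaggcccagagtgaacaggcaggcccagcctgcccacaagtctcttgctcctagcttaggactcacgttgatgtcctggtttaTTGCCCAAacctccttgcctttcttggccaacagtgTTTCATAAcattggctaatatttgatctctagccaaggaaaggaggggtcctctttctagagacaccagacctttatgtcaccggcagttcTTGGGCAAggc
Ltf (chr9:111019042-111019291, plus strand): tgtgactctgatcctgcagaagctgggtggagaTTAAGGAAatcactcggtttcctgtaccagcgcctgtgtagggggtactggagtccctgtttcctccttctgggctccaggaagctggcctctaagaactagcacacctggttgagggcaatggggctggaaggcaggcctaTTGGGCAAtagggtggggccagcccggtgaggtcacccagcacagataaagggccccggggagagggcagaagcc
Lcn2 (chr2:32387740-32387989, minus strand): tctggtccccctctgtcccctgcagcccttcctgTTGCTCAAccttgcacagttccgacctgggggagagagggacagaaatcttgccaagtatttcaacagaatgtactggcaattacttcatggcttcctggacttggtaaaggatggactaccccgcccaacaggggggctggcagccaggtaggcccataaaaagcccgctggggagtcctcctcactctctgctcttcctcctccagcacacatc
Mmp8 (chr9:7558179-7558428, plus strand): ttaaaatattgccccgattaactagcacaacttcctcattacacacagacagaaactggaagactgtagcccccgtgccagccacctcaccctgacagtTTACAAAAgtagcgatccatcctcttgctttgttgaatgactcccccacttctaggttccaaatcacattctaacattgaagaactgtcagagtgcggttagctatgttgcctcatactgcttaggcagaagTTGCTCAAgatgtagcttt

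The promoter table held 7 of the 8 genes, and no promoter of Wfdc21 was used here. The motif TTNNGNAA was found in 4 of these 7 stretches, against 36.8% of 32851 promoters of the same length and 28.4% of the 10331 that belong to genes of the count table. Ngp held 3 matches, Ltf 2, Mmp8 2 and Lcn2 1. The spelling TTGGGCAA, singled out after the matches were seen, starts 11 bases before the start of Ngp and 75 bases before that of Ltf, and its reverse complement TTGCCCAA starts 138 bases before that of Ngp. This spelling, on either strand, occurred in 0.709% of all promoters of that length. Lcn2 and Mmp8 both held TTGCTCAA, at 216 and 19 bases before their starts. The ETS-type core GAGGAA was found on either strand in 5 of the 7, in Mpo, Prtn3, Ltf, Lcn2 and Mmp8, against 23.3% of all promoters. The RUNX-type motif TGTGGT was found in 0 of 7 and in 14.0% of all. A match is a run of letters, not an occupied site.

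The 4 secondary granule genes were higher in the knockout libraries, with Ngp the most abundant of the 8 there. Counts were scaled to counts per 1000000 counts of the library (CPM) with TMM size factors, which correct for library size and composition. Ngp, neutrophilic granule protein and a relative of the cathelicidins, lay at 65.0, 70.3 and 87.1 CPM in knockout libraries 1 to 3, against 36.0, 26.9 and 31.6 CPM in control libraries 1 to 3. The groups stood well apart, with the lowest knockout library 1.81 times the highest control library. The log2 fold change of Ngp was 1.24 (standard error, SE, 0.13), from 74.1 ± 11.6 CPM in knockout and 31.5 ± 4.56 CPM in control libraries (SD, n = 3 each). Ltf, which encodes the iron-binding protein lactoferrin, lay at 41.4, 43.5 and 48.2 CPM in knockout libraries, against 28.8, 22.2 and 17.3 CPM in control libraries. The knockout libraries differed little among themselves, with a coefficient of variation of 7.84%, and the controls more, with 25.4%. Ltf had a log2 fold change of 0.96 (SE 0.14).

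Lcn2, lipocalin 2, which withholds iron from bacteria by binding their siderophores, lay at 41.0, 43.3 and 51.1 CPM in knockout libraries, against 25.8, 22.2 and 26.5 CPM in control libraries. Its log2 fold change was 0.87 (SE 0.12), and neither group varied by more than 11.8%. Camp, the cathelicidin precursor, which is cut to an antimicrobial peptide, lay at 22.0, 27.1 and 33.6 CPM in knockout libraries, against 21.6, 11.1 and 19.9 CPM in control libraries. The groups of Camp did not overlap, but its lowest knockout library was only 1.02 times its highest control library. Camp had a log2 fold change of 0.66 (SE 0.20), which was 0.42 without control library 2 and 0.85 without control library 1. Summed over the 4 genes, secondary granule transcripts made up 191 ± 26.0 CPM in knockout and 96.6 ± 15.0 CPM in control libraries (SD, n = 3 each), a ratio of 1.98. In bulk RNA, more cells of a type and more transcript per cell cannot be told apart.

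**Figure D1:**
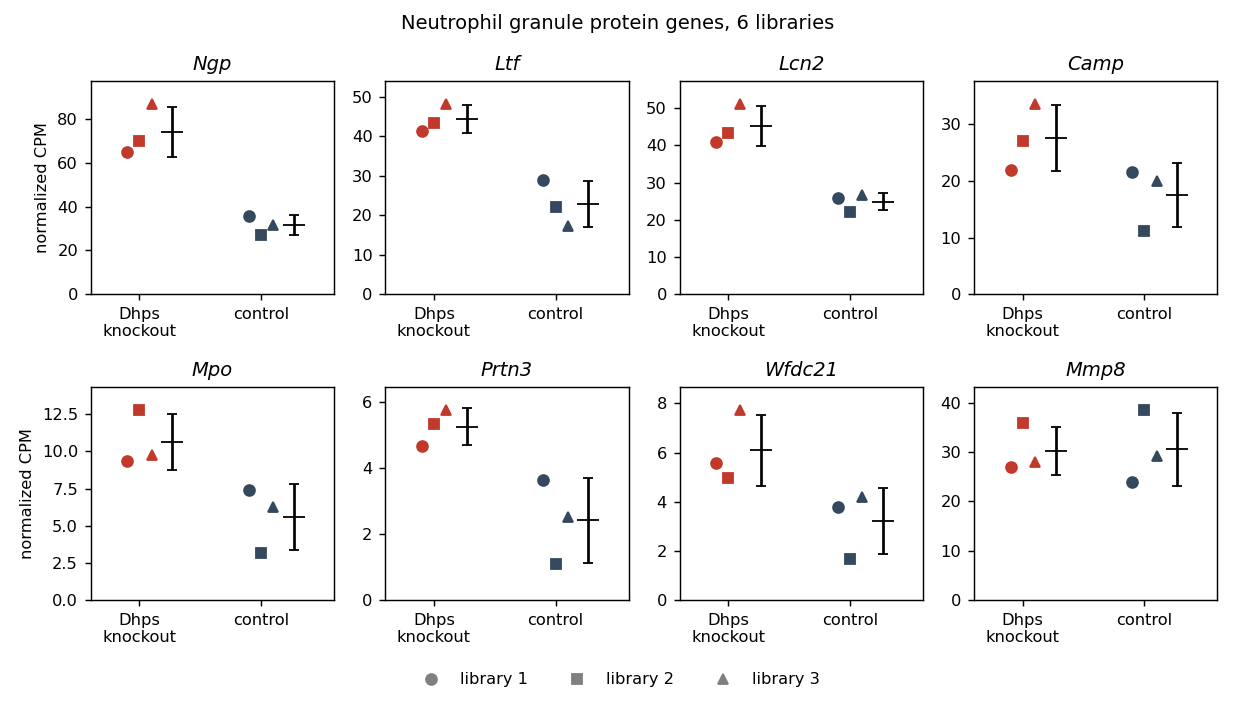
Normalized CPM (vertical axes, each from 0) of the 8 granule genes in 3 Dhps knockout (red, left) and 3 control libraries (dark, right). Symbols mark the library number, and the bar beside each group is its mean ± SD (n = 3). For 7 genes every knockout library lies above every control library, with Camp the closest (22.0 against 21.6 CPM), and the groups of Mmp8 overlap.

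The primary granule genes were rarer. Mpo, myeloperoxidase, which makes hypochlorous acid in the phagosome, had 136, 165 and 159 raw reads in knockout libraries, against 104, 49 and 72 in control libraries. This was 9.35, 12.8 and 9.75 CPM in knockout libraries, against 7.43, 3.15 and 6.26 CPM in control libraries. The log2 fold change of Mpo was 0.93 (SE 0.24), and it ran from 0.63 without control library 2 to 1.20 without control library 1. Of the exon bases of Mpo, 512 of 2546 are also exonic in Gm11505 on the opposite strand, a gene with no row in the count table. No label says whether counting used strand, so reads from this stretch cannot be assigned to one of the pair.

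Prtn3, proteinase 3, a serine protease of primary granules, had 68, 69 and 94 raw reads in knockout libraries, against 51, 17 and 29 in control libraries. This was 4.68, 5.35 and 5.76 CPM in knockout libraries, against 3.64, 1.09 and 2.52 CPM in control libraries. The highest control library of Prtn3 was 3.33 times the lowest one, the widest spread within a group among the 8 genes, while its highest knockout library was 1.23 times the lowest. The log2 fold change of Prtn3 was 1.14 (SE 0.32), and it ran from 0.76 without control library 2 to 1.59 without control library 1. The summed primary transcripts made up 15.9 ± 2.08 CPM in knockout and 8.03 ± 3.47 CPM in control libraries (SD, n = 3 each), a ratio of 1.98, which matched that of the secondary class to 3 digits.

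Wfdc21, which encodes a small secreted protein of the whey acidic protein family, had 81, 64 and 126 raw reads in knockout libraries, against 53, 26 and 48 in control libraries. This was 5.57, 4.96 and 7.72 CPM in knockout libraries, against 3.78, 1.67 and 4.17 CPM in control libraries. Wfdc21 had a log2 fold change of 0.95 (SE 0.29), which was 0.63 without control library 2 and 1.18 without control library 3.

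Mmp8, neutrophil collagenase, lay at 26.9, 35.9 and 28.0 CPM in knockout libraries, against 23.9, 38.5 and 29.2 CPM in control libraries. The groups of Mmp8 overlapped over most of their range, and control library 2, the lowest of the 6 for Ngp, Lcn2, Camp, Mpo, Prtn3 and Wfdc21, was the highest for Mmp8. The log2 fold change of Mmp8 was -0.02 (SE 0.15, 95% interval -0.35 to 0.31), and with 1 library left out it ran from -0.17 to 0.19. With 335 to 599 reads per library, Mmp8 was counted more deeply than Mpo, Prtn3 or Wfdc21. The difference in mean log2 CPM between Mmp8 and the secondary class was -0.57 ± 0.30 in knockout and 0.37 ± 0.59 in control libraries (SD, n = 3 each). The same difference between the primary and the secondary class was -2.56 ± 0.20 in knockout and -2.72 ± 0.50 in control libraries, well within the spread of the controls.

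**Figure D2:**
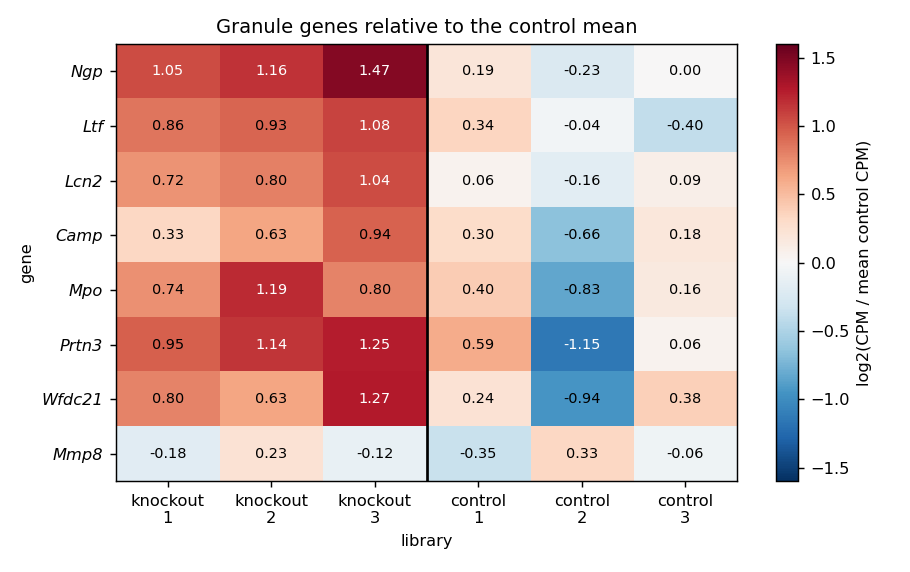
Each cell gives the log2 ratio of a library's CPM to the mean of the 3 control libraries, for 8 genes (rows) in 3 knockout (left) and 3 control libraries (right). Knockout libraries are above 0 for all genes but Mmp8, and control library 2 is the lowest of the 6 for 6 genes, at -1.15 for Prtn3, but the highest for Mmp8, at 0.33.

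Every knockout library thus lay above every control library for 7 of the 8 genes, against 5.73% of all 10551 genes. In the test over all genes (edgeR's quasi-likelihood test, two-sided, called at a Benjamini-Hochberg adjusted p under 0.05) Ngp, Ltf and Lcn2 rose and the other 5 genes did not pass, against 0.0948% of all genes called higher. The members were chosen with this contrast known, so that nothing is read from these counts. Without control library 2, Ngp and Lcn2 were called and Ltf was not. The median log2 fold change was 0.94 over the 8 genes, -0.0044 over all genes, and 0.70 for the 8 genes without control library 2. All 8 genes exceeded 1 CPM in each of the 6 libraries, so that none owed its row to the knockout libraries.

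The libraries of a group were ordered alike for most of the genes. Knockout library 3 was the highest of the 6 for Ngp, Ltf, Lcn2, Camp, Prtn3 and Wfdc21, and knockout library 2 for Mpo. Among pairs of the 7 genes, Pearson's r of log2 CPM over the 6 libraries, group difference included, ran from 0.68 (Ltf and Wfdc21) to 0.99 (Ngp and Lcn2). Mmp8 paired with the other 7 gave -0.53 to -0.14. These coefficients describe only 6 libraries, and all genes of a library share its depth and scaling. The reads of Ngp per read of Camp were 2.95, 2.59 and 2.59 in knockout libraries, against 1.67, 2.42 and 1.59 in control libraries. Ngp per Lcn2 was 1.59, 1.62 and 1.70 in knockout libraries, against 1.39, 1.21 and 1.19 in control libraries, with no overlap. Ngp per Ltf was 1.57, 1.62 and 1.81 in knockout libraries, against 1.25, 1.21 and 1.82 in control libraries, and these overlapped. The genes were chosen with this contrast known, so these ratios are a description only. Mpo per Prtn3 was 2.00, 2.39 and 1.69 in knockout libraries, against 2.04, 2.88 and 2.48 in control libraries, and these overlapped.

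**Figure D3:**
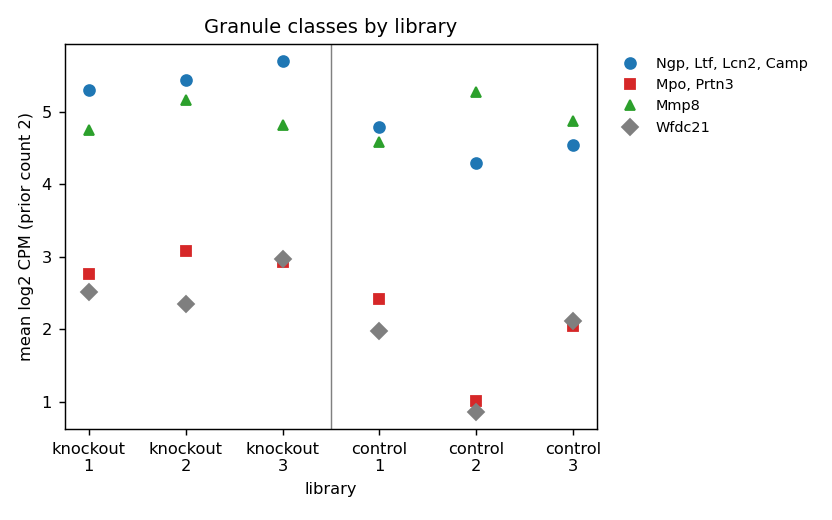
Mean log2 CPM (prior count 2) of each granule class in 3 knockout (left) and 3 control libraries (right). Secondary (circles), primary (squares) and Wfdc21 (diamonds) lie higher in each knockout library than in each control library, while Mmp8 (triangles) lies between 4.76 and 5.17 in knockout and between 4.59 and 5.27 in control libraries.

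Levels were set against each other per length, as CPM per kilobase of exon. In knockout libraries Ngp came first with 63.8 ± 9.95 CPM per kb, then Lcn2 with 52.9 ± 6.23 and Camp with 46.0 ± 9.70. Ltf followed with 16.2 ± 1.27 CPM per kb, Wfdc21 with 13.9 ± 3.32 and Mmp8 with 12.3 ± 1.99, then Prtn3 with 5.42 ± 0.56 and Mpo with 4.17 ± 0.74 (SD, n = 3 each). The libraries of neighbours in this order overlapped, except between Camp and Ltf and between Mmp8 and Prtn3. In control libraries Camp (29.3 ± 9.37 CPM per kb), Lcn2 (29.1 ± 2.74) and Ngp (27.1 ± 3.93) had overlapping libraries. Mmp8 came next with 12.5 ± 3.01 CPM per kb, ahead of Ltf with 8.31 ± 2.11 and Wfdc21 with 7.33 ± 3.07. Prtn3 with 2.49 ± 1.32 and Mpo with 2.20 ± 0.87 CPM per kb came last. There the libraries of neighbours overlapped except between Ngp and Mmp8 and between Wfdc21 and Prtn3.

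Of the secondary granule genes 3 lie on the same stretch of chromosome 9 in mm10: Camp at chr9:109847377-109849456 on the minus strand with 4 exons, Ngp at chr9:110419808-110423012 on the plus strand with 4 exons, and Ltf at chr9:111019292-111042766 on the plus strand with 17 exons. The count table held 16 further genes in the 1195 kb from Camp to Ltf. None of these was called in edgeR's test, against 0.104% of all genes. An unadjusted p under 0.05 was found for 0 of them, against 3.84% of all genes higher and 2.64% lower. With 16 genes, nothing is read from these counts. The median log2 fold change of the 16 was 0.0043, from -0.32 to 0.86. Mmp8 lies far off on the same chromosome, at chr9:7558429-7568486. Lcn2 lies at chr2:32384637-32387739, Prtn3 at chr10:79879667-79883172, Wfdc21 at chr11:83746940-83752646 and Mpo at chr11:87793784-87804412. Apart from Mpo, none of the 8 shares exon bases with another annotated gene, and apart from 8 of the 3508 stretches of 50 bases in Mpo transcripts, none shares such a stretch with the annotated transcripts of another gene.

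Beyond the 8 genes, 41 further granule proteins were listed by class from textbook knowledge and not by how they moved, and 32 of them had a row in the table. None rose and 1 fell, Lyz2, in edgeR's test over all genes, against 0.0948% and 0.00948% of all genes. DESeq2 and limma-voom likewise called 0 higher and 1 lower, where DESeq2 called 0.18% of all genes higher. At an unadjusted p under 0.05, 5 of the 32 were higher and 1 was lower, against 3.84% and 2.64% of all genes. The median log2 fold change of the 32 was 0.08. Every knockout library lay above every control library for 4 of the 32 (Hp, Cd177, Chil1 and Slpi), and below for 1, against 5.73% and 5.45% of all genes. Slpi exceeded 1 CPM in 3 knockout and 2 control libraries. It thus had a row only through the knockout libraries, and nothing is read from its lack of overlap.

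Lyz2, the macrophage form of lysozyme, an enzyme that cuts bacterial cell walls and is stored in neutrophil granules too, fell to 8060.2, 9462 and 8774 CPM in knockout libraries, against 16267, 19080 and 18770 CPM in control libraries. Its log2 fold change was -1.04 (SE 0.10, adjusted p = 7.2e-05 in edgeR's test). Lyz2 and Ngp thus moved in opposite directions in each knockout library. The labels do not state the Cre driver, and its part in the lower level of Lyz2 was not tested.

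Of the other primary granule genes 8 had a row, and none passed. Elane, neutrophil elastase, which lies beside Prtn3, was near the floor at 1.31, 1.86 and 2.51 CPM in knockout libraries, against 2.78, 0.71 and 0.87 CPM in control libraries. Its groups overlapped, and the log2 fold change was 0.38 (SE 0.45, adjusted p = 0.943 in edgeR's test), with 0.029 without control library 2 and 1.28 without control library 1. Serpinb1a, an inhibitor of neutrophil serine proteases, had a log2 fold change of 0.28, Cd63, a granule membrane protein, of 0.16, and Ctsc, which activates the granule serine proteases, of -0.17. With 1 library left out these ran from 0.051 to 0.66, from 0.093 to 0.23 and from -0.26 to -0.017. Ctsg and Bpi were not analysed here, as they have no row in the table.

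Of the other secondary granule genes 13 had a row. Hp, haptoglobin, which binds haemoglobin, averaged 17.8 ± 3.14 CPM in knockout and 11.3 ± 2.07 CPM in control libraries (SD, n = 3 each), and its lowest knockout library (14.2 CPM) lay just above its highest control library (13.6 CPM). The log2 difference was 0.64 (SE 0.16, adjusted p = 0.290 in edgeR's test). For Chil1, a chitinase-like protein, the log2 fold change was 0.80 (SE 0.22, adjusted p = 0.366 in edgeR's test), from 7.80 ± 1.85 CPM in knockout and 4.50 ± 0.97 CPM in control libraries (SD, n = 3 each). Cd177, a surface and granule membrane protein of neutrophils, had 0.80 (SE 0.25, adjusted p = 0.462 in edgeR's test), from 4.23 ± 0.57 CPM in knockout and 2.45 ± 0.37 CPM in control libraries. Pglyrp1, which binds peptidoglycan, had a log2 fold change of 0.83 (SE 0.30), and Olfm4, olfactomedin 4, of 1.14 (SE 0.62). Both were named after their values were seen, and Olfm4 was at 0.28, 3.41 and 1.35 CPM in knockout libraries, so that knockout library 1 was the lowest of the 6.

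The 11 tertiary and secretory granule genes with a row showed a median log2 fold change of 0.09, and none passed. Mmp9, the gelatinase that defines tertiary granules and is made by macrophages as well, lay at 684, 594 and 698 CPM in knockout libraries, against 654, 437 and 501 CPM in control libraries. The groups of Mmp9 overlapped, and the log2 fold change was 0.31 (SE 0.12, adjusted p = 0.672 in edgeR's test), from 0.19 without control library 2 to 0.49 without control library 1. Mmp25, a membrane-bound metalloproteinase, had a log2 fold change of 0.23, Adam8, a surface metalloproteinase, of 0.12, and Cfp, properdin, of -0.14. With 1 library left out these ran from 0.10 to 0.42, from 0.073 to 0.22 and from -0.25 to -0.034. Split after the values were seen at a mean of 20 CPM over the 6 libraries, the 11 rarer genes of the 32 showed a median log2 difference of 0.49 with 10 above 0, and the 21 more abundant ones a median of 0.013 with 12 above 0. All genes of the table under that level had a median of 0.0072. Of the rarer granule genes, Elane exceeded 1 CPM in 3 knockout and 1 control libraries, Olfm4 in 2 and 1, and Slpi in 3 and 2. Elane, Olfm4 and Slpi would have no row without the knockout libraries, so that nothing is read from this split.

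**Figure D4:**
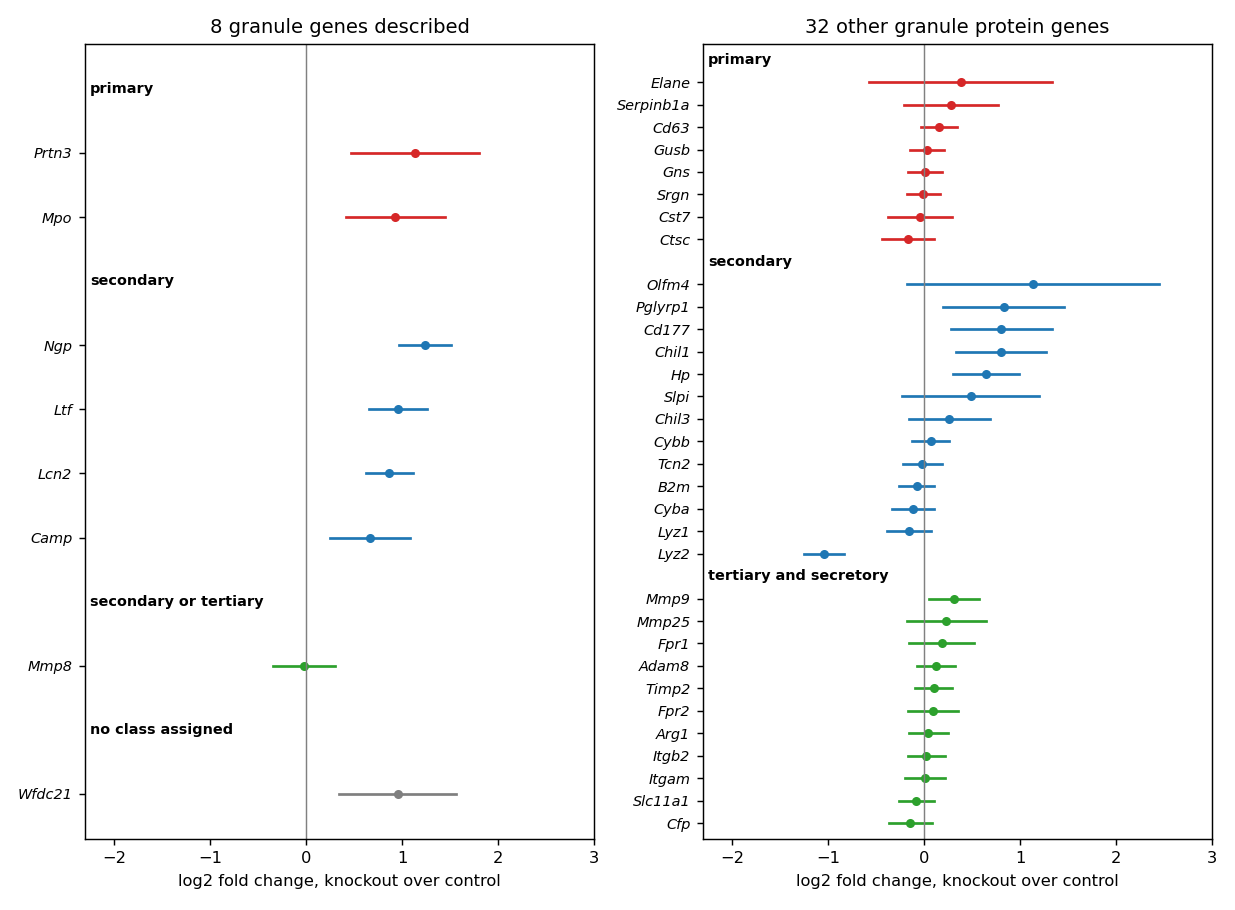
Log2 fold changes of knockout over control (points) with 95% intervals (lines) from edgeR's fit over all genes, by granule class, for the 8 genes described (left) and 32 other granule protein genes (right). Of the 8, Mmp8 alone has its point below 0. Of the 32, Lyz2 lies lowest at -1.04, and Hp, Chil1, Cd177, Pglyrp1 and Olfm4 lie between 0.64 and 1.14.

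Of 11 listed transcription factors of granulocyte development 9 had a row, and none passed in edgeR's test, DESeq2 or limma-voom. At an unadjusted p under 0.05 1 was higher, against 3.84% of all genes. That was Cebpe, which encodes the C/EBP factor that secondary granule genes require, at 0.96, 2.56 and 2.27 CPM in knockout libraries, against 0.79, 0.84 and 1.22 CPM in control libraries. The groups overlapped through knockout library 1, and the log2 fold change was 1.04 (SE 0.41, adjusted p = 0.673 in edgeR's test). Control libraries 1 and 2 lay under 1 CPM. Cebpe thus had a row only through the knockout libraries, and nothing is read from its unadjusted p. Cebpa had a log2 fold change of 0.29, Gfi1, a repressor in granulocyte precursors, of 0.27, and Cebpd of -0.31. With 1 library left out, Cebpa ran from 0.12 (without knockout library 1) to 0.42 (without knockout library 3), Gfi1 from 0.010 (without knockout library 3) to 0.47 (without knockout library 1) and Cebpd from -0.46 (without control library 1) to -0.13 (without control library 2).

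Markers of other cells moved beside these genes. Of 19 neutrophil markers outside the granule lists 11 had a row, and 2 rose, the calprotectin subunits S100a8 (log2 fold change 0.95, adjusted p = 4.3e-04) and S100a9 (0.85, adjusted p = 0.0061, both in edgeR's test). Over all genes, 0.0948% were called higher. S100a8 lay at 140, 151 and 166 CPM in knockout libraries, against 91.5, 71.0 and 74.4 CPM in control libraries. Without control library 2, S100a8 was called and S100a9 was not. Abca13, a lipid transporter, lay at 7.63, 7.21 and 8.58 CPM in knockout libraries, against 4.78, 3.79 and 3.74 CPM in control libraries, with no overlap. Its log2 difference of 0.93 (SE 0.19) was called by DESeq2 (adjusted p = 0.039) but not in edgeR's test (adjusted p = 0.118) or limma-voom (adjusted p = 0.149). The receptor genes Trem3 and Trem1 had overlapping groups and log2 differences of 0.96 (SE 0.42) and 0.62 (SE 0.34). Csf3r, the receptor for the granulocyte growth factor G-CSF, had overlapping groups and a log2 difference of 0.19 (SE 0.15, adjusted p = 0.905 in edgeR's test). Ly6g, Cxcr2, Fcnb and Stfa1 had no row and were not analysed here. Of the 11, 8 had a log2 fold change above 0, with a median of 0.19. At an unadjusted p under 0.05 4 were higher and 0 lower, against 3.84% and 2.64% of all genes. Trem3, among these 4, lay at 0.43, 0.90 and 1.13 CPM in control libraries. It thus had a row only through the knockout libraries, and nothing is read from its unadjusted p. The summed level of the 11 ran from 2375 to 2868 CPM in knockout and from 2430 to 2600.2 CPM in control libraries. Most of that sum was Anxa1 (1358 CPM in knockout and 1387 CPM in control libraries on average) and Clec4e (705 CPM in knockout and 818 CPM in control libraries).

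Of 7 progenitor markers 3 had a row and none passed, with a sum of 100.2 to 108 CPM in knockout and 95.2 to 130.2 CPM in control libraries, and Cd34 and Flt3 had no row. Most of that sum was Cdk6 (102 CPM in knockout and 110 CPM in control libraries on average). Cdk6 and Kit had overlapping groups and log2 differences of -0.11 and 0.11. Ms4a3 had 0.63 (SE 0.36) with no overlap, but its control libraries 1 and 2 lay under 1 CPM. It thus had a row only through the knockout libraries, and nothing is read from its lack of overlap. Of 11 mast cell and basophil markers 4 had a row and summed to 17.3 to 25.7 CPM in knockout and 13.8 to 16.9 CPM in control libraries. Among these Hdc and Cpa3 had overlapping groups and log2 differences of 0.31 (SE 0.16) and -0.11 (SE 0.48). The basophil proteases Mcpt8 and Prss34 had log2 differences of 2.00 and 1.70 with no overlap (adjusted p = 0.110 and 0.132 in edgeR's test). No control library of either exceeded 1 CPM (highest 0.57 and 0.93 CPM). Both thus had a row only through the knockout libraries, and nothing is read from their lack of overlap. Of 9 eosinophil markers 5 had a row and summed to 31.6 to 48.1 CPM in knockout and 31.8 to 34.8 CPM in control libraries.

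The measured monocyte markers, 10 in number and with Hp, also a granule gene, among them, lay mostly above 0: 9 of 10 had a positive log2 fold change, with a median of 0.41. None was called by edgeR, DESeq2 or limma-voom, and at an unadjusted p under 0.05 5 were higher (Plac8 0.86, Spn 0.79, Ccr2 0.68, Hp 0.64 and Ly6c2 0.50 on the log2 scale) and 0 lower. Over all genes these shares were 3.84% and 2.64%. Every knockout library lay above every control library for Plac8, Spn and Hp, against 5.73% of all genes. The summed level of the 10, most of it Vcan, Ifitm3 and F13a1, overlapped, with 382 to 515 CPM in knockout and 390 to 447 CPM in control libraries.

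Of the 7 measured megakaryocyte and platelet markers none was called by the 3 tools, and 5 had a log2 fold change above 0, with a median of 0.64. Of these Ppbp (0.77), Itga2b (0.64), Tubb1 (1.54) and Gp9 (1.11) had every knockout library above every control library, against 5.73% of all genes. No control library of Tubb1 or Gp9 exceeded 1 CPM (highest 0.86 and 0.93 CPM). Both thus had a row only through the knockout libraries, and nothing is read from their lack of overlap. Pf4, platelet factor 4, went the other way without overlap, at 1245 ± 70.0 CPM in knockout and 1517 ± 157 CPM in control libraries (SD, n = 3 each). Pf4 made up most of the summed level of 1270.1 to 1398 CPM in knockout and 1499 to 1797 CPM in control libraries.

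Of 6 measured stromal markers 3 passed edgeR's test narrowly and rose: the collagen gene Col1a2 (log2 fold change 2.82), the matrix protein gene Sparc (2.34) and Fstl1, each with an adjusted p of 0.046. Over all genes, 0.0948% were called higher. DESeq2 called the same 3 genes and limma-voom none of them, with adjusted p = 0.096, 0.146 and 0.072. With 1 library left out in turn, edgeR's test called Col1a2 in 2 of 6 fits (knockout library 1 or 2 removed), Sparc in 1 (knockout library 1 removed) and Fstl1 in 1 (control library 1 removed). These genes are rare: Col1a2 averaged 2.76 CPM in knockout and 0.39 CPM in control libraries, Sparc 2.89 CPM in knockout and 0.58 CPM in control libraries, and Fstl1 8.57 CPM in knockout and 4.23 CPM in control libraries. No control library of Col1a2 or Sparc exceeded 1 CPM (highest 0.52 and 0.78 CPM). Both thus had a row only through the knockout libraries, and their calls are given as a description only. Fn1, at 654 CPM in knockout and 721 CPM in control libraries, made up most of the sum of the 6, which ran from 587 to 740.3 CPM in knockout and from 639 to 799 CPM in control libraries.

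Of the listed B and plasma cell, T and NK cell, erythroid and dendritic cell markers 2, 1, 1 and 3 had a row, and none was called in edgeR's test. The T cell marker Cd4 had a log2 difference of 1.55 near the floor, at 1.94 to 2.39 CPM in knockout and 0.35 to 1.07 CPM in control libraries. Jchain, a plasma cell marker, had 1.46 with overlapping groups. The erythroid marker Car2 had -0.03. Of the 3 dendritic cell markers, Zbtb46 (0.57) and Clec9a (0.21) lay above 0 and Batf3 (-0.28) below it. The part of these cells in the levels of the granule genes was not tested.

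All 14 listed macrophage markers had a row, which alone does not establish the cell type. Of the 14, 9 had a log2 fold change below 0, with a median of -0.12. In edgeR's test Lyz2 fell and the other 13 did not pass, against 0.00948% of all genes called lower. At an unadjusted p under 0.05 5 were lower and 0 higher, against 2.64% and 3.84% of all genes. Every knockout library lay below every control library for 6 of them: Lyz2, Adgre1, the complement genes C1qa (-0.28 on the log2 scale), C1qb (-0.25) and C1qc (-0.33), and the Fc receptor gene Fcgr1 (-0.33). Of all genes, 5.45% did so. Without Lyz2 the markers summed to 8517 to 9744 CPM in knockout and 8881 to 10292 CPM in control libraries. Adgre1, which encodes F4/80, averaged 1338 ± 99.3 CPM in knockout and 1512 ± 54.4 CPM in control libraries (SD, n = 3 each). Dhps itself lay at 13.2, 13.6 and 18.3 CPM in knockout libraries, against 24.1, 20.9 and 23.4 CPM in control libraries, and its log2 fold change of -0.59 (SE 0.14) did not pass in edgeR's test (adjusted p = 0.214). Total counts ran from 11648710 to 16224818 per library.

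Among 8222 other genes with a mean of at least 5 CPM, those whose log2 CPM followed the mean standardized level of the 8 genes most closely over the 6 libraries were Zfp131 (r = 0.98), Hnrnph1 (0.98), S100a8 (0.97), S100a9 (0.97), Plac8 (0.96), Kdm5b (0.96), Hilpda (0.96), Ptprn (0.95), Adm (0.95) and Arsb (0.95). These coefficients include the difference between the groups and are given as a description. Of these 10 genes, Zfp131 and Hnrnph1 had log2 fold changes of 0.30 and 0.21, and S100a8, S100a9 and Plac8 of 0.95, 0.85 and 0.86. Once the group means were subtracted, 10 other genes led, with Iqsec2, Trim26 and Pigu first and log2 fold changes of -0.03, 0.02 and 0.04.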

How the data were processed

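The authors deposited raw, unnormalized read counts per gene, per the file headers and values, beside a summed exon length in bases. The lengths served only for levels per kilobase. Tools listed in the submitters' processing notes are edgeR, Subread 1.5.0, featureCounts and STAR 2.4.2a, with mm10 as the build and no role or order given. In each of the 10551 genes at least 3 libraries exceeded 1 CPM, so rarer genes have no row. No per-sample column was left out.

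Counts were scaled with TMM and fitted with edgeR 4.0.16 in R 4.3.3, with genotype as the only term. The filter filterByExpr (minimum count 10) dropped 0 genes. Benjamini-Hochberg adjustment ran over all 10551 p-values, and the biological coefficient of variation was 10.7%. An SE is the log2 fold change over the square root of F. The fit was tested on simulated counts. Log2 CPM used a prior count of 2.

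The members and lists were chosen with earlier results of these data known. Named genes were the 8 members, Dhps, Lyz2, granule genes past the threshold or among the 4 smallest p of a class, 4 regulators, defining markers and the 10 closest genes by r. Slpi, Pglyrp1, Olfm4, S100a8, S100a9 and the further markers of other cells were named after their values were seen. Promoter sequences and motif shares are from RefSeq (GRCm38.p6), exon overlaps and transcripts from GENCODE M21 of the same assembly. Alternatives were RLE or no size factors, no filter or a stricter one, a block for replicate number, leaving out each library or Lyz2, DESeq2 1.42.0, limma-voom (limma 3.58.1) and an adjusted p under 0.1.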

Additional observations from a re-analysis of the deposited data

How the results depend on the processing

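The 11 genes called over the whole table became 35 with the replicate number as a block, 22 with DESeq2 and 7 with Lyz2 left out, and ran from 4 to 19 with 1 library left out; the cause was not tested. Lyz2 was the granule gene called lower, so that leaving it out gave 0 by construction. The replicate numbers were not taken to pair the libraries: deviations from the group means correlated at 0.14, 0.019 and 0.15 for numbers 1, 2 and 3, and library 2 did not match its own number best. Ngp and Lcn2 passed in edgeR's test with each library left out, and Ltf did not pass without control library 2. The median log2 fold change of the 8 genes ran from 0.70 (without control library 2) to 1.14 (without control library 1), and from 0.94 to 0.997 over the other settings. Of the 8 genes Mmp8 changed sign, from -0.17 without control library 1 to 0.19 without control library 2, with 0.061 and 0.037 without knockout libraries 1 and 3. With 17 to 165 reads per library, the values of Mpo, Prtn3 and Wfdc21 rest on the fewest reads.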
